A study of Mus musculus with 8 samples.

Results

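Molecular chaperones are the proteins that help others to fold, keep them from aggregating and hand damaged ones on for degradation. HSP70 proteins bind short hydrophobic stretches in a cycle of ATP hydrolysis that is started by J-domain proteins (the DNAJ families) and reset by nucleotide exchange factors such as the HSP110 proteins. HSP90 takes over partly folded clients such as kinases and receptors, the chaperonins enclose a client in a barrel (CCT in the cytosol, HSPD1 with its lid HSPE1 in mitochondria), and small HSPs hold unfolding proteins in solution. In neurons the same machinery also runs specialised cycles, such as the removal of clathrin coats from vesicles by HSC70 with the J-domain protein auxilin.

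The genes described here are the heat shock proteins and chaperonins, taken by symbol among the protein-coding genes: those beginning with Hspa, Hspb, Hspd, Hspe, Hsph or Hsp90, the numbered Dnaja, Dnajb and Dnajc genes, the numbered Cct genes and Tcp1. This gave 84 of the 22430 genes listed, by a rule that reads only symbols. All samples were brain RNA of male C57Bl/6JRj mice, for which no treatment or transgene is given. The 2 groups differ in age, with 4 mice aged 6 months (young adult, 6m) and 4 aged 24 months (24m). Polyadenylated RNA of a hemisphere homogenate was sequenced, so every value is a mean over all cell types of the brain, and fewer cells of a type cannot be told apart from less RNA per cell. Each library is 1 animal, and p-values measure the spread between 4 animals per age.

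The 8 libraries held between 63460940 and 103462414 counts, the deepest being 24m replicate 1, which also lay nearest to the 6m libraries in many of the genes below. Levels are given as CPM, counts rescaled to a common library total, corrected by TMM, a factor that evens out differences in library composition. Levels of different genes are compared per kilobase of the canonical transcript, apart from summed CPM, shares of a sum and ratios of CPM. A gene was called when edgeR's quasi-likelihood test gave padj, the p adjusted over all genes tested, no higher than 0.05, and when its log2 fold change (log2FC, 24m over 6m) was 0.58 or more in size. Of the 84 genes, 79 passed the filter on low counts. The other 5 were Cct8l1 with 25 counts over all libraries, Dnajb7 with 23, Dnajb8 with 2, Dnajc5b with 33 and Dnajc5g with 0, the last of which allows a level of up to 0.00489 CPM over the 613594727 counts of the series.

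Several of these genes have one of 2 known regulatory elements in the 250 bases before the start of their canonical transcript, and the sites are shown first because they pair genes that moved differently below. The heat shock element, bound by the heat shock factor HSF1, was searched as 3 alternating units (GAANNTTCNNGAA or TTCNNGAANNTTC) and, more loosely, as 2 units (GAANNTTC or TTCNNGAA), which is contained in the first. The endoplasmic reticulum (ER) stress element, bound by ATF6 with NF-Y, was searched as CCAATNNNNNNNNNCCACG, and all were read on both strands. The 3-unit element was found before 2 of 84 members (2.38%) and 76 of 21770 protein-coding genes (0.349%), the ER stress element before 3 members (3.57%) and 25 genes in all (0.115%), and the 2-unit element before 15 members (17.9%) against 12.3% of all genes. A match is only a match of letters. The sites are printed 5′ to 3′ on the strand of the gene from GRCm39, with the element in capitals:
Hspe1, shared with Hspd1 on the other strand (chr1:55127212-55127241, + strand): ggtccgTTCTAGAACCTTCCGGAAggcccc
Hspa5 (chr2:34662032-34662061, + strand): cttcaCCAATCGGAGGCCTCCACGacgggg
Hsp90b1, distal (chr10:86541496-86541525, - strand): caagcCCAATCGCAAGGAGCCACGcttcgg
Hsp90b1, proximal (chr10:86541391-86541420, - strand): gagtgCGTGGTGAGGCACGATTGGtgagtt
Dnajc3 (chr14:119175234-119175263, + strand): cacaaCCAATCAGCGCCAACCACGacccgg
Hspa1b (chr17:35178300-35178329, - strand): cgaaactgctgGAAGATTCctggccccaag
Hspb1 (chr5:135916645-135916674, + strand): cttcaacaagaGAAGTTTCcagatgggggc
Hsph1 (chr5:149559816-149559845, - strand): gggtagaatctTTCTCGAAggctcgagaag

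The Hspd1 and Hspe1 transcripts start 108 bases apart and run in opposite directions, so the 18 bases in capitals, which hold 2 overlapping 3-unit elements, lie before both genes. Hspa1a has the same 2-unit element as Hspa1b, and the windows of these near-identical copies match at 247 of 250 bases.

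At 24m chaperone genes were called in both directions. Of the 79 tested, 12 were called higher (15.2%, against 25.3% of all 16730 genes tested), 17 were called lower (21.5%, against 18.3%) and 50 were not called. Taking both directions, 36.7% of the members were called against 43.6% of all genes, and by padj alone 57 (72.2%) passed against 62.6%, 21 higher and 36 lower. The libraries of the 2 ages did not overlap in 51 members (64.6%, against 55.2% of all genes), with 24m above in 18 and below in 33. The median log2FC of the members was -0.19, with a range of -1.39 to 2.56, beside -0.0034 for all genes. With library totals alone 19 members were called higher and 11 lower, and the medians were 0.03 for the members and 0.21 for all genes.

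Summed over the 84 genes, chaperone RNA was at 11624 ± 523 CPM at 6m and 9888 ± 330 CPM at 24m (mean ± SD, n = 4), with the lowest 6m library at 11104 and the highest 24m library at 10262 CPM. This difference depended on the scaling: with library totals alone the sums were 10770.0 ± 165 CPM and 10673 ± 662 CPM, and the ages overlapped. With TMM scaling, Hsp90aa1 alone accounted for a difference of -771 CPM out of -1736 CPM. A few genes made up most of the sum at both ages: Hsp90ab1, Hspa8 and Hsp90aa1 together gave 54.5% ± 0.841 of it at 6m and 51.5% ± 1.33 at 24m. These shares count reads and are not per length. The share of Hspa8 went from 20.4% ± 0.614 to 25.3% ± 0.749, that of Hsp90ab1 from 23.3% ± 0.715 to 21.4% ± 0.912 and that of Hsp90aa1 from 10.8% ± 0.832 to 4.84% ± 0.424.

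**Figure D1:**
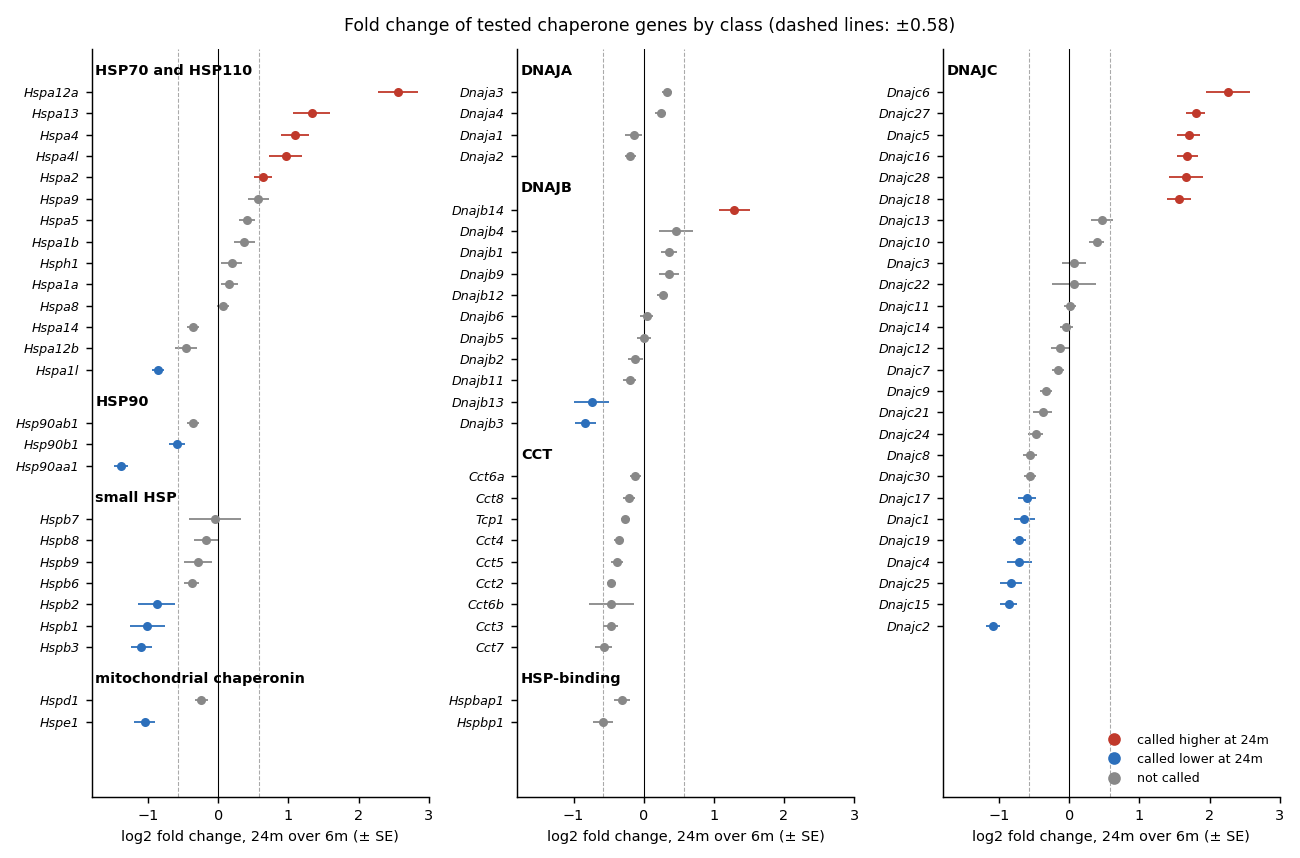
Log2 fold change of the tested members named in their classes (points, 24m over 6m, with SE bars), grouped by class and coloured by call, with dashed lines at ±0.58. The HSP90, small HSP, mitochondrial chaperonin and CCT genes lie to the left of 0 (Hsp90ab1, Hspb7, Hspb8, Hspb9, Cct6a and Cct8 changed sign in other scalings or with the length trend removed), and the 12 genes called higher belong to the HSP70 and HSP110 class, DNAJB and DNAJC.

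HSP90 genes, a class of 3 that encode dimeric ATPases for the maturation of signalling proteins, included the member with the lowest fold change. Hsp90aa1 (ENSMUSG00000021270, chr12:110656842-110669166, GRCm39, - strand) encodes the stress-inducible cytosolic form HSP90α. Its 6m libraries held 1371, 1103, 1257 and 1269 CPM and its 24m libraries 458, 504, 426 and 526 CPM. The highest aged library, at 526 CPM, was far below the lowest young one, at 1103 CPM, and the fall was the largest of the 79 members tested (log2FC = -1.39 ± 0.10 SE, padj = 2.42e-05), a 2.61-fold fall that was called in all 18 alternative analyses. Of the 100-base windows of its transcripts, 44.1% also occur in another gene, mainly a processed copy, and the handling of reads with several positions is not stated.

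Hsp90ab1, the constitutive cytosolic form HSP90β, was the most abundant member per kilobase at 6m, with 1005 CPM per kb against 354 for Hsp90aa1. It held 2712, 2535, 2610 and 3003 CPM at 6m and 2264, 1990.1, 2099.5 and 2101 CPM at 24m. All aged libraries were below all young ones, but the difference stayed under the fold threshold (log2FC = -0.36 ± 0.09, padj = 0.00759). It did not pass with library totals alone (-0.14, padj = 0.077), and its sign turned to 0.10 when DESeq2 was run on quantile-normalized counts. The ratio of Hsp90aa1 to Hsp90ab1 CPM, which is not per length, was 0.461 ± 0.0389 at 6m and 0.227 ± 0.0284 at 24m, with 0.423 the lowest young and 0.253 the highest aged value.

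Hsp90b1, which encodes the ER form GRP94 and carries 2 ER stress elements, held 267, 224, 253 and 245 CPM at 6m and 135, 180, 153 and 187 CPM at 24m. It fell without overlap (log2FC = -0.59 ± 0.11, padj = 0.00168), only just past the threshold. The call was lost in 5 of 18 alternatives: with library totals as the only scaling (-0.36), with DESeq2 on quantile-normalized counts (-0.43), and when 24m replicate 1 (-0.49), 24m replicate 3 (-0.56) or 6m replicate 1 (-0.55) was dropped. The summed level of the class was 4212 ± 285 CPM at 6m and 2757 ± 93.8 CPM at 24m.

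**Figure D2:**
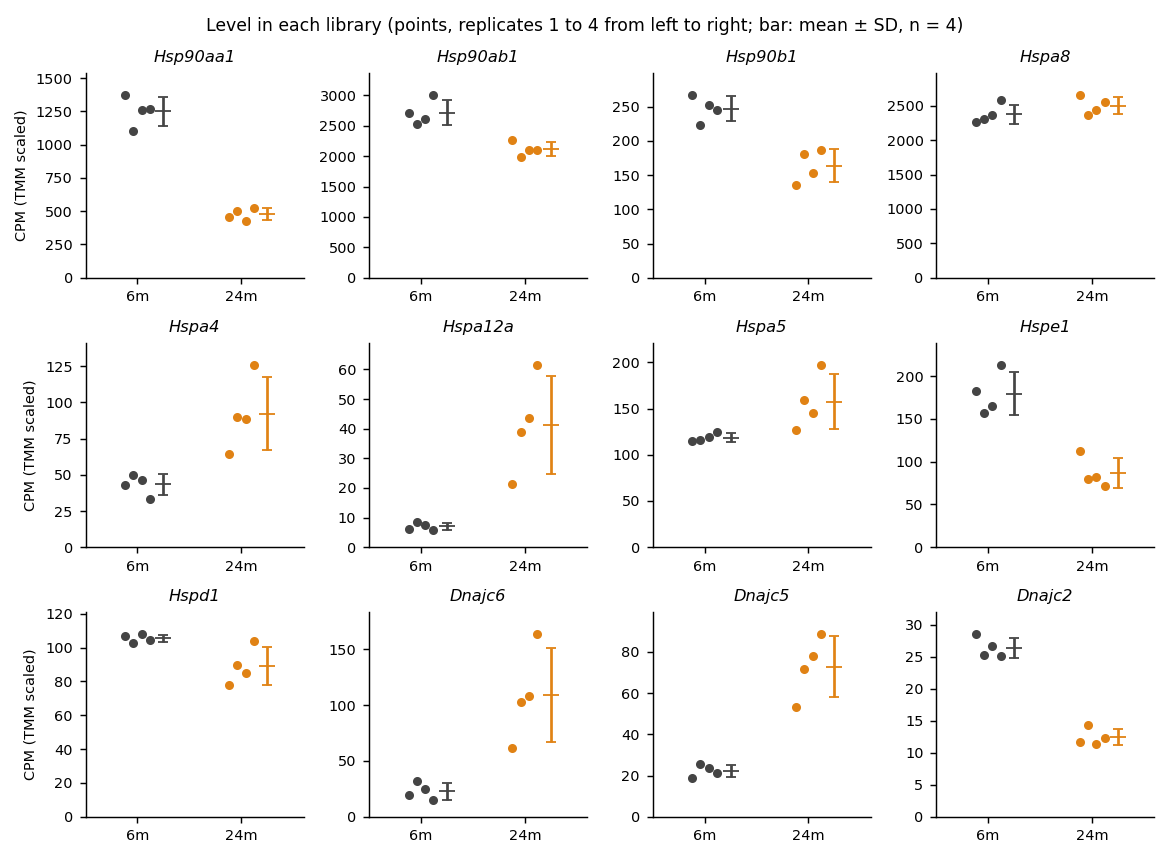
Level of 12 members in each library (TMM-scaled CPM from 0, points for replicates 1 to 4 from left to right, bar for mean ± SD, n = 4 per age). Hsp90aa1, Hspe1 and Dnajc2 fall without overlap, Hspa4, Hspa12a, Dnajc5 and Dnajc6 rise with 24m replicate 1 lowest and 24m replicate 4 highest, and Hspa8 overlaps between ages.

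Of the 14 HSP70 and HSP110 genes, 5 were called higher (against 25.3% of all genes), 1 was called lower (against 18.3%) and 8 were not called, with a median log2FC of 0.39. The main constitutive HSP70 of neurons, HSC70 (Hspa8), did not pass the test (log2FC = 0.07 ± 0.09, padj = 0.488). Its libraries held 2267, 2300.4, 2361 and 2579 CPM at 6m and 2654, 2366, 2442 and 2548 CPM at 24m, which overlap. At 24m it had the highest level per kilobase of the members, 1045 CPM per kb against 782 for Hsp90ab1. Of its windows, 62.8% also occur elsewhere, mainly in 1 pseudogene-like gene, and its value depended on the scaling. It was at -0.22 and -0.12 with the length or GC trend removed, at 0.29 with library totals alone (edgeR, padj = 0.00423) and at 0.56 with DESeq2 on quantile-normalized counts (padj = 1.81e-08), and was called in none of the 18 alternatives.

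The classical stress-inducible HSP70 genes, Hspa1a and Hspa1b, did not pass the test either. Hspa1a ranged from 46.3 to 60.9 CPM at 6m and from 48.4 to 65.0 CPM at 24m (log2FC = 0.16 ± 0.12, padj = 0.270). For Hspa1b the libraries held 32.6, 38.0, 38.3 and 43.7 CPM at 6m and 36.7, 47.6, 54.3 and 58.1 CPM at 24m, with the lowest aged library inside the young range (log2FC = 0.37 ± 0.15, padj = 0.0519). The copies share 48.6% and 49.9% of their windows, so that reads may have been divided or dropped between them, and Hspa1b passed both thresholds with the length trend removed (0.73) or with library totals as the only scaling (0.60).

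The gene beside them behaved differently. Hspa1l, an HSP70 best known from testis that starts 532 bases from Hspa1a on the opposite strand, fell from 16.6 to 19.3 CPM at 6m to between 9.08 and 10.4 CPM at 24m (log2FC = -0.86 ± 0.09, padj = 9.89e-05). With the length trend removed its log2FC was -0.44 and it was not called.

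Of the 3 genes for HSP110 proteins, the exchange factors of HSP70, 2 were called higher (against 25.3% of all genes), 1 of them with the length trend removed as well. Hspa4, which encodes APG-2, held 43.0, 50.1, 46.7 and 33.6 CPM at 6m and 64.4, 90.1, 88.4 and 126 CPM at 24m. Each aged animal was above each young one (log2FC = 1.09 ± 0.20, padj = 0.00115). Hspa4l, its relative APG-1, rose from 15.6 to 19.8 CPM at 6m to between 19.9 and 48.7 CPM at 24m (log2FC = 0.96 ± 0.23, padj = 0.00467), with the lowest aged library only just above the young range, and was not called with the length trend removed (0.48). The heat-inducible member Hsph1 (HSP105), whose 2-unit element is printed above, overlapped between ages (log2FC = 0.19 ± 0.15, padj = 0.288) and was at -0.23 with the length trend removed.

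Hspa12a was the most changed of all members. It encodes an atypical, distantly related HSP70 that is abundant in brain (ENSMUSG00000025092, chr19:58784181-58932086, - strand). At 6m its libraries held 6.14, 8.64, 7.41 and 5.89 CPM and at 24m 21.4, 38.8, 43.6 and 61.6 CPM. The aged libraries varied widely among themselves, but the lowest was still above the highest young one (log2FC = 2.56 ± 0.29, padj = 0.000112, a 5.88-fold rise). Its endothelial-type relative Hspa12b fell from 9.22 ± 1.75 to 6.68 ± 0.547 CPM by padj alone (log2FC = -0.46 ± 0.15, padj = 0.0195). It did not pass with library totals alone (-0.24, padj = 0.161) and was called with DESeq2 on quantile-normalized counts (-0.76). Markers of endothelial cells did not move as 1 group. Of the 5, 1 was called higher (Flt1, 1.24, against 25.3% of all genes) and 2 lower (Cldn5, -1.06, and Ly6c1, -1.26, against 18.3%). With the length trend removed Cldn5 was not called, Cdh5 was called higher (0.64) and Pecam1 was called lower (-0.61). The summed level of the 5 markers ranged from 69.4 to 105 CPM at 6m and from 41.1 to 60.7 CPM at 24m, and its part in the Hspa12b value was not tested.

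Of the 3 organelle HSP70 genes, Hspa13 was called higher, and Hspa5 and Hspa9 were higher by padj alone. Hspa5 encodes BiP, the HSP70 of the ER lumen, and held 115, 116, 119 and 125 CPM at 6m and 127, 159, 145 and 197 CPM at 24m. The libraries did not overlap, but the change stayed under the fold threshold (log2FC = 0.41 ± 0.12, padj = 0.0171). It was called with library totals alone (0.64) and did not pass with the GC trend removed (0.16, padj = 0.144). Mortalin, the mitochondrial HSP70 encoded by Hspa9, was just short of the threshold with overlapping libraries (log2FC = 0.57 ± 0.15, padj = 0.00726) and was called in 6 of 18 alternatives. Hspa13, a microsomal HSP70 also called STCH, rose from 3.39 ± 0.511 to 8.50 ± 2.87 CPM (log2FC = 1.33 ± 0.26, padj = 0.00167), and Hspa2 rose from 36.1 ± 3.98 to 56.4 ± 9.25 CPM (log2FC = 0.64 ± 0.13, padj = 0.00225), a call lost without 24m replicate 4 (0.58). The ribosome-associated Hspa14 was lower by padj alone (log2FC = -0.36 ± 0.09, padj = 0.00505), was called with the length trend removed (-0.61) and did not pass with library totals alone (-0.14, padj = 0.129).

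**Figure D3:**
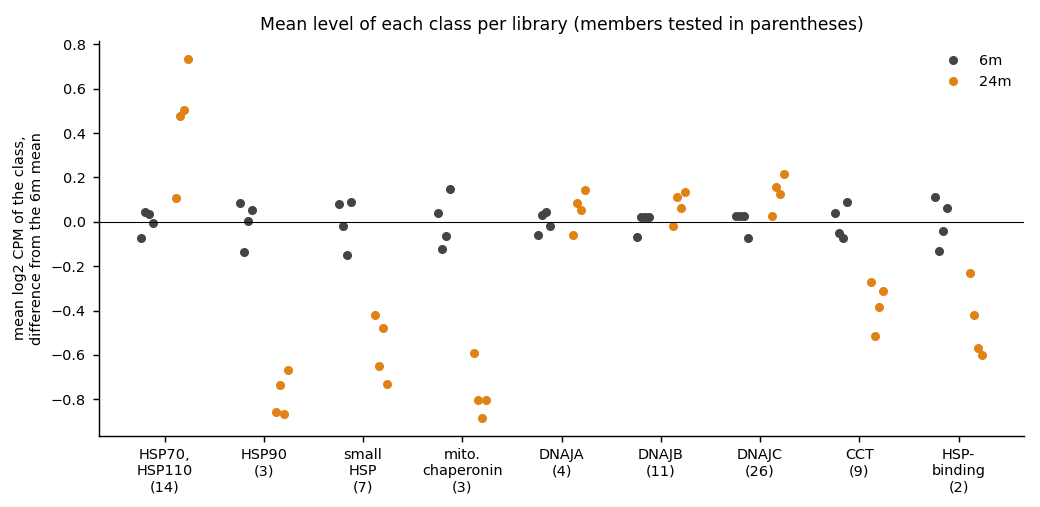
Mean log2 CPM of the tested members of each class in each library, as difference from the 6m mean of that class (points for replicates 1 to 4 from left to right, number of members tested in parentheses). HSP70 and HSP110 genes were 0.11, 0.48, 0.50 and 0.74 above the young mean in 24m replicates 1 to 4, and HSP90 genes were 0.67 to 0.87 below it.

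Small HSPs, which bind unfolding proteins without ATP, were called lower in 3 of 7 cases (against 18.3% of all genes), with a median log2FC of -0.38. Hspb1, which encodes HSP25, held 26.1, 18.3, 22.1 and 31.8 CPM at 6m and 18.5, 11.5, 10.1 and 8.54 CPM at 24m. It was called lower (log2FC = -1.01 ± 0.25, padj = 0.00575), although 24m replicate 1 lay within the young range, and 55.4% of its windows also occur elsewhere, mainly in a pseudogene. Hspb2 fell from 2.42 ± 0.385 to 1.31 ± 0.492 CPM (log2FC = -0.88 ± 0.26, padj = 0.0153). It overlaps Cryab on the other strand, which was at 371 ± 78.4 CPM at 6m and 183 ± 30.5 CPM at 24m, and the strand setting of the counting is not stated. Hspb3 fell from 2.97 ± 0.192 to 1.38 ± 0.224 CPM (log2FC = -1.10 ± 0.15, padj = 0.000264).

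Of the remaining small HSPs, Hspb6 passed padj alone (log2FC = -0.38 ± 0.11, padj = 0.0121), but not with library totals alone (-0.17, padj = 0.17), and was called with DESeq2 on quantile-normalized counts (-0.68). Hspb8, a partner of BAG3 in autophagy, did not pass (log2FC = -0.18 ± 0.17, padj = 0.354). Hspb7 and Hspb9 were at 0.12 and 0.408 CPM at 6m and did not pass (-0.05 and -0.29). The 3 called genes have short transcripts (Hspb1 916, Hspb2 1038 and Hspb3 781 bases), unlike Hspb6 and Hspb7 (3044 and 2772 bases). With a length trend removed none of the 3 calls held (Hspb1 -0.27, Hspb2 -0.17, Hspb3 -0.26), nor did Hspb7, Hspb8 and Hspb9 keep their sign (0.15, 0.27 and 0.59). Several small HSPs are also muscle proteins. In the same libraries 4 of 5 vascular smooth muscle markers were called lower (Acta2, Tagln, Myl9 and Cnn1, but not Myh11), against 18.3% of all genes. With the length trend removed 1 of the 4 kept the call (Acta2), and Myh11 gained it (-0.68). The summed level of these markers ranged from 59.1 to 84.7 CPM at 6m and from 29.8 to 42.9 CPM at 24m. Their part in the small HSP values was not tested.

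The neighbouring genes of the mitochondrial chaperonin differed in fold change. Hspe1 (ENSMUSG00000073676, chr1:55127260-55130476, + strand), the HSP10 lid, held 183, 157, 165 and 214 CPM at 6m and 113, 80.2, 82.1 and 72.1 CPM at 24m. No libraries overlapped and the gene was called lower (log2FC = -1.05 ± 0.15, padj = 0.000379). Hspd1 (ENSMUSG00000025980, chr1:55116989-55171038, - strand), the HSP60 barrel that starts from the same stretch, held 107, 103, 108 and 105 CPM at 6m and 78.0, 89.5, 85.0 and 104 CPM at 24m.

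Hspd1 was lower by padj alone (log2FC = -0.24 ± 0.09, padj = 0.0444), with 24m replicate 4 inside the young range, and was at -0.02 with library totals alone (padj = 0.896). As a result, the ratio of Hspd1 to Hspe1 CPM went from 0.596 ± 0.0784 at 6m to 1.07 ± 0.310 at 24m, with 0.658 the highest young and 0.689 the lowest aged value. This ratio is not per length. Per kilobase, Hspd1 was at 43.6 and Hspe1 at 232 CPM per kb at 6m, and at 36.8 and 112 CPM per kb at 24m. The canonical transcripts are 2423 and 774 bases long, and the combined exons, over which the length trend was taken, 3730 and 1781. With the length trend removed Hspe1 was at -0.47 (padj = 0.000935, no longer called) and Hspd1 at -0.08 (padj = 0.58). The annotated genes overlap on opposite strands, 26.9% and 20.4% of their windows recur elsewhere, and the strand setting of the counting is not stated.

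J-domain proteins choose the client and the place for HSP70. In DNAJA, the cytosolic and mitochondrial type related to bacterial DnaJ, edgeR called 0 of 4 genes, against 43.6% of all genes. Of the 4, 3 had an unadjusted p under 0.05, and DESeq2 and limma-voom called 0. The median log2FC was 0.05, or -0.11 with the GC trend removed and 0.27 with library totals alone. The mitochondrial Dnaja3 (TID1) was higher by padj alone, from 50.0 ± 1.17 to 62.7 ± 1.89 CPM (log2FC = 0.33 ± 0.07, padj = 0.00251), as was Dnaja4 (0.24 ± 0.08, padj = 0.0223). With the length trend removed they were at -0.01 (padj = 0.924) and 0.03 (padj = 0.722). Dnaja1, a partner of HSC70, overlapped between ages (log2FC = -0.14 ± 0.12, padj = 0.325) and was at 0.08 with library totals alone.

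Of 11 DNAJB genes tested, 1 was called higher (against 25.3% of all genes) and 2 lower (against 18.3%), with a median log2FC of 0.04. Dnajb14, anchored in the ER membrane, rose from 2.83 ± 0.0728 to 6.91 ± 2.33 CPM (log2FC = 1.29 ± 0.22, padj = 0.000906). Dnajb3 fell from 4.50 ± 0.793 to 2.52 ± 0.189 CPM (log2FC = -0.83 ± 0.15, padj = 0.00102), and was at -0.05 with the length trend removed. Dnajb13, a protein of the motile cilium, fell from 1.63 ± 0.241 to 0.969 ± 0.356 CPM with overlapping libraries (log2FC = -0.74 ± 0.25, padj = 0.0274). This call was lost in 8 of 18 alternatives, with library totals alone (-0.53), with the length trend removed (-0.57) and in 6 that each left out 1 library (-0.76 to -0.61, padj up to 0.0759), which were all but 24m replicate 1 and 6m replicate 2.

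Beside Dnajb13, 4 of 5 markers of ependymal and motile ciliated cells were called lower (against 18.3% of all genes), with Foxj1 not called (0.21 ± 0.13, padj = 0.195), and 2 of the 4 kept the call with the length trend removed. Their summed level ranged from 87.2 to 107 CPM at 6m and from 46.6 to 75.0 CPM at 24m, and its part in the Dnajb13 value was not tested. Dnajb1, the heat-inducible HSP40 that works with HSPA1A, was higher by padj alone with 1 aged library inside the young range (log2FC = 0.36 ± 0.12, padj = 0.0219), and was called with library totals alone (0.59).

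DNAJC, the family defined by little more than the J domain, held the largest rises outside Hspa12a. Calls were made for 13 of the 26 genes tested (against 43.6% of all genes), 6 higher (against 25.3%) and 7 lower (against 18.3%). The median log2FC was -0.14, or 0.07 with library totals alone and -0.32 with the GC trend removed. Dnajc6 (ENSMUSG00000028528, chr4:101353743-101502342, + strand) encodes auxilin, which recruits HSC70 to strip clathrin from endocytic vesicles in neurons. Its libraries held 19.1, 32.0, 25.2 and 14.8 CPM at 6m and 61.3, 103, 108 and 163 CPM at 24m. The ages did not overlap and the rise was 4.78-fold (log2FC = 2.26 ± 0.31, padj = 0.000300).

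Dnajc5 encodes cysteine string protein α, a chaperone on synaptic vesicles that keeps SNAP-25 folded. It held 18.9, 25.7, 23.6 and 21.5 CPM at 6m and 53.4, 71.4, 78.1 and 88.5 CPM at 24m. This was again a rise without overlap (log2FC = 1.70 ± 0.16, padj = 5.11e-05). The other 4 called higher were Dnajc27, a small GTPase with a J domain (1.80 ± 0.14), the ER proteins Dnajc16 (1.68 ± 0.15) and Dnajc18 (1.56 ± 0.17), and Dnajc28 (1.66 ± 0.24), and all 6 were called in all 18 alternatives.

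Among neuron markers 3 of 7 were called higher (Syt1, Gad1 and Gad2, against 25.3% of all genes) and 1 lower (Tubb3, -0.63, against 18.3%). With the length trend removed Tubb3 was at -0.39 and not called, and Rbfox3 was called lower at -0.82. The neuron markers had a summed level of 3407 to 3809 CPM at 6m and 3894 to 4049 CPM at 24m, and their part in the Dnajc6 and Dnajc5 values was not tested. Astrocyte markers were called higher in 4 of 5, all but Aldh1l1 (against 25.3% of all genes), with a summed level of 414 to 461 CPM at 6m and 863 to 1012 CPM at 24m.

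The 7 DNAJC genes called lower include some that act at ribosomes and mitochondria. Dnajc2, the ribosome-bound MPP11 that meets nascent chains, held 28.5, 25.3, 26.7 and 25.1 CPM at 6m and 11.7, 14.3, 11.4 and 12.3 CPM at 24m. The ages were well separated (log2FC = -1.08 ± 0.10, padj = 4.91e-05), and the log2FC was -1.10 with the length trend removed. Dnajc15 and Dnajc19, parts of the mitochondrial import motor, fell from 56.1 ± 6.04 to 31.0 ± 4.49 CPM (log2FC = -0.86 ± 0.12, padj = 0.000339) and from 33.9 ± 2.38 to 20.7 ± 1.51 CPM (log2FC = -0.71 ± 0.09, padj = 0.000206).

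The other 4 were Dnajc4 (-0.71 ± 0.18), the ER proteins Dnajc25 (-0.83 ± 0.15) and Dnajc1 (-0.64 ± 0.15), and Dnajc17 (-0.60 ± 0.13). With library totals alone Dnajc1, Dnajc4, Dnajc17 and Dnajc19 were not called (-0.41, -0.50, -0.38 and -0.49). Dnajc1 also lost its call without 24m replicate 1 (-0.54) or 6m replicate 1 (-0.55), and Dnajc17 when 24m replicate 2 (-0.57), 24m replicate 4 (-0.52) or 6m replicate 4 (-0.57) was dropped. With the GC trend removed Dnajc17 was not called either (-0.50), and with the length trend removed Dnajc17 was at -0.07 (padj = 0.463) and Dnajc4 at -0.13 (padj = 0.258). Dnajc8 and Dnajc30, of the spliceosome and of mitochondria, lay just under the threshold, both at -0.56 with no overlap (padj = 0.00103 and 0.000495), and were called with the GC trend removed (-0.77 and -0.63) or without 24m replicate 1 (-0.64 and -0.58), and also Dnajc8 without 6m replicate 4 (-0.59) and Dnajc30 without 6m replicate 2 (-0.58).

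The 3 genes with an ER stress element did not move alike: Hsp90b1 was called lower (-0.59), Hspa5 was higher by padj alone (0.41, but not with the GC trend removed), and Dnajc3, the co-chaperone p58IPK, did not pass (0.07 ± 0.17, padj = 0.740) and had a negative sign in 4 of its alternatives. Across 13 members chosen by name as ER proteins, 4 were called higher (Hspa13, Dnajb14, Dnajc16 and Dnajc18, against 25.3% of all genes) and 3 lower (Hsp90b1, Dnajc1 and Dnajc25, against 18.3%), with a median log2FC of 0.36 (0.11 with the GC trend removed, 0.58 with library totals alone). A list of 8 members chosen by name as mitochondrial held Hspa9, Hspd1, Hspe1, Dnaja3, Dnajc11, Dnajc15, Dnajc19 and Dnajc30. In it edgeR called 0 higher (against 25.3%) and 3 lower (Hspe1, Dnajc15 and Dnajc19, against 18.3%), with a median of -0.40 (-0.18 with library totals alone). The list leaves out Dnajc28, called higher (1.66), and Dnajc4, called lower (-0.71), so its counts hold for these 8 only. Of those 8, 7 had an unadjusted p under 0.05, and DESeq2 and limma-voom each called 3.

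The cytosolic chaperonin CCT, a ring of 8 different subunits that folds actin and tubulin, was lower in 7 of those subunits by padj alone, beside 62.6% of all genes that passed padj in either direction. Cct7 (ENSMUSG00000030007, chr6:85428439-85445708, + strand) held 563, 529, 523 and 624 CPM at 6m and 458, 362, 362 and 327 CPM at 24m. No libraries overlapped and the change ended just under the threshold (log2FC = -0.57 ± 0.12, padj = 0.00225). It was followed by Cct3 (-0.47 ± 0.11), Cct2 (-0.46 ± 0.07), Cct5 (-0.38 ± 0.09), Cct4 (-0.35 ± 0.07), Tcp1 (-0.26 ± 0.07) and Cct8 (-0.21 ± 0.08, padj = 0.0467), all with every aged library below every young one, beside 55.2% of all genes without overlap in either direction.

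The eighth ring subunit, Cct6a, overlapped (-0.12 ± 0.08, padj = 0.229). Its sign turned positive with library totals alone (0.11) or DESeq2 on quantile-normalized counts (0.01), as did that of Cct8 with library totals (0.02). Cct6b, a copy of Cct6a best known from testis, was at 0.285 CPM at 6m. With it edgeR called 0 of 9 CCT genes in either direction, against 43.6% of all genes. Of the 9, 7 had an unadjusted p under 0.05, and DESeq2 and limma-voom called 0. Other settings did give calls. With the GC trend removed Cct2, Cct3, Cct4 and Cct7 were called lower (-0.66, -0.66, -0.63 and -0.70), with the length trend removed Cct3 and Cct7 (-0.71 and -0.78), and Cct7 also without 24m replicate 1 (-0.65) or without 6m replicate 2 or 3 (-0.60 each). With library totals alone, Cct4 (-0.13, padj = 0.12) and Tcp1 (-0.04, padj = 0.569) did not pass either. The summed level of the ring subunits was 2047 ± 103 CPM at 6m and 1552 ± 101 CPM at 24m. Their median log2FC was -0.37, or -0.41 with the length trend removed, -0.58 with the GC trend removed and -0.15 with library totals alone. Per kilobase, the subunits were unequal at both ages, from 26.1 (Cct4) to 224 (Cct7) CPM per kb at 6m and from 20.4 to 151 CPM per kb at 24m.

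**Figure D4:**
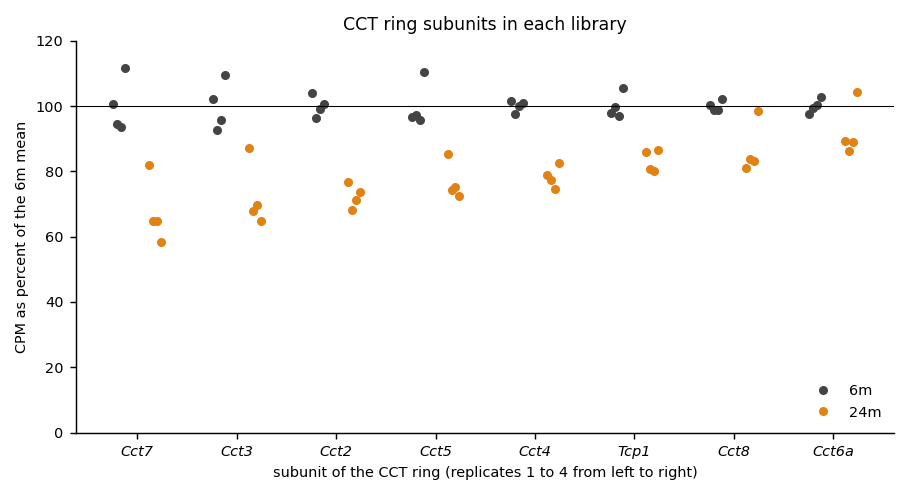
Level of the 8 CCT ring subunits in each library, as percent of the 6m mean of that gene (points for replicates 1 to 4 from left to right). In the aged animals Cct7 was at 67.4% ± 10.1 and Cct6a at 92.3% ± 8.20 of the young mean (mean ± SD, n = 4), and in Cct6a and Cct8 the highest aged point is 24m replicate 4.

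Genes that deliver substrates to CCT or act on them after it were also examined. Of 13 prefoldin genes and CCT partners tested, 8 were called lower (against 18.3% of all genes) and 1 higher (against 25.3%), with a median log2FC of -0.85. They included 5 of the 6 prefoldin subunits, the jaw-like complex that hands actin and tubulin to CCT, of which Pfdn5 fell from 633 ± 51.6 to 292 ± 105 CPM (log2FC = -1.12 ± 0.21, padj = 0.00144). The tubulin cofactor Tbca fell from 125 ± 13.4 to 51.4 ± 9.24 CPM (log2FC = -1.28 ± 0.13, padj = 7.50e-05), while Pdcl, a phosducin-like regulator of CCT, was the 1 called higher (1.02 ± 0.19, padj = 0.00133). The list has a median transcript length of 1735 bases and a median log2FC of -0.54 with the length trend removed. Of the 8 called lower, 4 then kept the call (Pfdn1, Pfdn4, Pfdn5 and Tbca) and 4 lost it (Pfdn2 at -0.46, Pfdn6 at -0.40, Tbcb at -0.48 and Tbcc at 0.09). Txndc9 (-0.82) and Tbce (-0.78) gained a call, so that 6 were called lower.

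The 29 heat shock factors and co-chaperones tested gave 4 called higher (against 25.3% of all genes) and 4 lower (against 18.3%), with a median of -0.14. With the length trend removed 2 were called higher and 10 lower. Hsf1, the factor that binds the heat shock element, was lower by padj alone (log2FC = -0.51 ± 0.09, padj = 0.00117) and was called with the length trend removed (-0.87). Of the genes called lower, Bag1, an HSP70 exchange factor, fell from 305 ± 18.7 to 159 ± 16.4 CPM (log2FC = -0.94 ± 0.09) and Stub1, the ubiquitin ligase CHIP, from 677 ± 68.7 to 369 ± 89.2 CPM (-0.87 ± 0.16). Of those called higher, Sgtb rose from 6.68 ± 2.00 to 29.3 ± 6.72 CPM (2.13 ± 0.23), and Fkbp5, an immunophilin partner of HSP90, was at 0.95 ± 0.15, but at 0.54 and not called with the length trend removed.

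Among the members themselves the 2 proteins named for binding HSPs both passed padj alone. Hspbp1, an HSP70 exchange factor, was lower in all aged libraries and rounded to the threshold without reaching it (log2FC = -0.58 ± 0.14, padj = 0.00532). It was called lower in 10 of 18 alternatives, among them the length trend removed (-0.69), the GC trend removed (-0.61), limma-voom (-0.60), the replicate number as a block (-0.60) and without 24m replicate 1 (-0.71) or 6m replicate 2 or 3 (-0.60 each). Hspbap1 was at -0.31 ± 0.12 (padj = 0.0471), was called with the length trend removed (-0.72) and did not pass with library totals alone (-0.09, padj = 0.522).

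Of 27 genes for ER folding, 6 were called higher (against 25.3% of all genes) and 8 lower (against 18.3%), and with the length trend removed 6 and 4 of these kept their call. Highest were Atf6, the sensor whose cleaved form binds the ER stress element (2.41 ± 0.24), and Sel1l of the ER-associated degradation complex (2.18 ± 0.22), and lowest were the stress transcription factors Ddit3 (-0.98 ± 0.13) and Atf4 (-0.97 ± 0.10), the latter not called with the length trend removed (-0.54). Of 16 genes for mitochondrial folding and import, 6 were called lower (against 18.3% of all genes) and none higher by edgeR, with 14 at an unadjusted p under 0.05, 6 called by DESeq2 and 7 by limma-voom. The 6 include the members Hspe1, Dnajc15 and Dnajc19 counted above, and 4 kept the call with the length trend removed, when Trap1 gained one (-0.65). A core of 18 genes known to rise on heat shock gave 2 called higher (Hspa4 and Hspa4l, against 25.3% of all genes) and 4 lower (Hsp90aa1, Hspe1, Hspb1 and Cryab, the last at -1.02 ± 0.17, against 18.3%), with a median of -0.05. Of these, Hspa4, Hsp90aa1 and Cryab kept the call with the length trend removed, when Hspa1b (higher, 0.73) and Ahsa1 (lower, -0.81) gained one.

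Transcript length moved with these changes. Over the 79 members the log2FC had a Spearman correlation of 0.58 with the length of the canonical transcript, beside 0.56 over 16677 genes, as a description in which all points share the same 8 libraries. The 26 shortest members (515 to 2394 bases) had a median log2FC of -0.51 with 0 called higher and 10 lower, the next 26 (2423 to 3530 bases) -0.13 with 2 higher and 4 lower, and the 27 longest (3534 to 13134 bases) 0.39 with 10 higher and 3 lower. Of all genes tested 25.3% were called higher and 18.3% lower, and the shares of all genes in these length bands are not given here. The trend removed from each library was one over the combined length of all annotated exons of a gene, not over the canonical transcript. After its removal the correlation over the members was 0.23 with canonical length and -0.14 with exon length. In that fit 12 members were called higher, 11 of them among the 12 above. It called 13 lower, 7 of them among the 17 above, and the shares of all genes called in it are not given here.

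The 7 that kept their call were Hsp90aa1, Hsp90b1, Dnajc1, Dnajc2, Dnajc15, Dnajc19 and Dnajc25. The 10 that lost it included Hspe1, Hspb1, Hspb2, Hspb3, Hspa1l, Dnajb3, Dnajb13, Dnajc4 and Dnajc17, and among the 12 called higher only Hspa4l lost it (0.48). By class, the median log2FC with the length trend removed was 0.48 for HSP70 and HSP110, -0.69 for HSP90 and -0.17 for small HSPs.

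**Figure D5:**
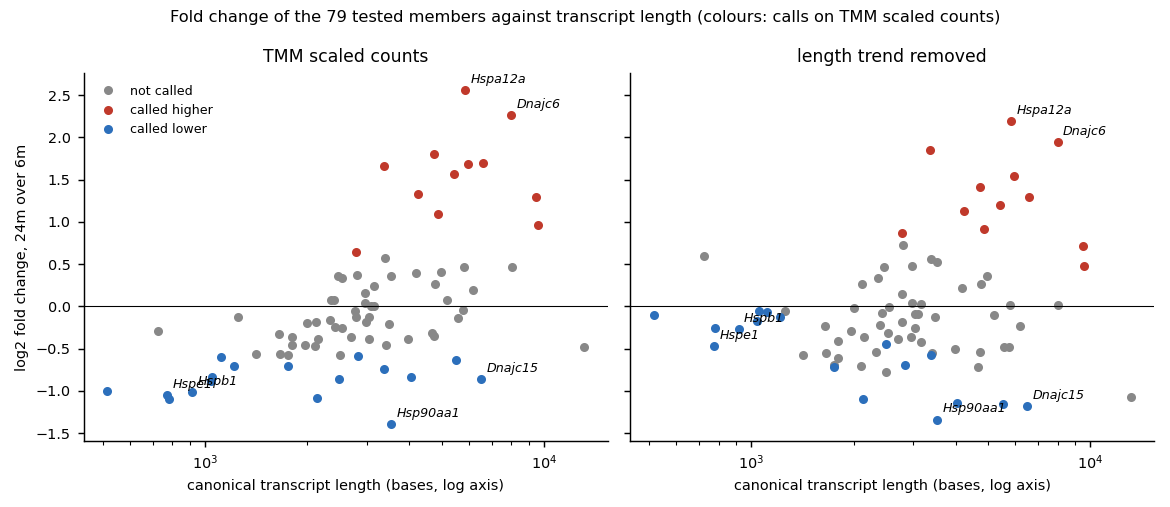
Log2 fold change (24m over 6m) of the 79 tested members against canonical transcript length in bases (log axis), with TMM-scaled counts on the left and the length trend removed on the right, coloured by the call on the left. The trend removed is over the combined exon length of a gene, not over the length on the axis. Hspe1 and Hspb1 move from -1.05 and -1.01 to -0.47 and -0.27, while Hsp90aa1, Dnajc15, Dnajc6 and Hspa12a stay beyond 0.58 in size.

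The aged libraries also kept an order. In all 12 members called higher, 24m replicate 1 was the lowest and 24m replicate 4 the highest aged library. In the 17 called lower, replicate 1 was the highest aged library in 11 and replicate 4 the lowest in 9. The shares of all called genes in this order are not given here. Outside the members Syt1, Gad2, Atf6 and Sel1l had the order of those called higher, and Gfap had the reverse. Over the genes tested, counts of 24m replicate 1 differed most from the other aged libraries (chi-square per degree of freedom of 182 to 426, against 13.1 to 61.9 among the others). Without 24m replicate 1, 34 of the 79 members were called, against 49.8% of all genes. These were 15 higher, including the same 12, and 19 lower, including 15 of the 17, with Hsp90b1 and Dnajc1 lost.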

How the data were processed

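Whole-number gene counts of 8 libraries were used as deposited. They come from directional poly(A) libraries read from both ends; adapter trimming (Trim Galore), alignment to GRCm39 (HISAT2 2.1.0) and counting per Ensembl gene (featureCounts) were done by the authors; strand and multimapping settings are not given in the sources used here, so counts of paralogs and overlapping genes are uncertain. Positions, lengths and sequences came from GENCODE on the same assembly, in a later release. Genes above 5 counts in 4 or more libraries were tested with edgeR 4.0.16 (R 4.3.3; TMM, quasi-likelihood, age as the only term, Benjamini-Hochberg over all genes tested). CPM are relative to the TMM-scaled library total. SE is the log2FC divided by the square root of F. The precision of each level is set by totals of 63460940 to 103462414 counts and by n = 4, and limits for a count of 0 (3 counts) cover counting error only. The values of 1 member are not reported here. Members and gene lists were chosen with earlier results of these data known. Genes named were a fixed list plus, per class, up to 4 called members with the largest changes among those without overlap and with a mean of at least 1 CPM, and further members were chosen after their values were seen; for partner lists, the 2 largest called changes in each direction and genes of known role. Alternatives were DESeq2 1.42.0 on the counts and on quantile-normalized counts, limma-voom (limma 3.58.1), other scalings and filters, trends over combined exon length and over GC removed, the replicate number as a block and each library left out. The fit was tested on simulated data. No 2 libraries of an age agreed within sampling noise, and same-numbered libraries of the 2 ages did not deviate together. Markers of neurons and glia were present and liver markers near 0. Red cell markers were called lower in 5 of 5 (against 18.3% of all genes). Their summed level ranged from 5426 to 7605 CPM at 6m and from 1242 to 4156 CPM at 24m, and its part in the values of members was not tested.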

Additional observations from a re-analysis of the deposited data

Results flagged for a closer look

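Of 98 groups of 4 libraries examined for a value far from the other 3 (gap over range above Dixon's 95% critical value), 6 stood out, where chance gives about 1 in 20. In the CCT ring these were Cct5 in 6m replicate 4 (308 CPM), Cct6a in 24m replicate 4 (154 CPM) and Cct8 in 24m replicate 4 (159.6 CPM), each above the other libraries of its age. Dnajb3 was highest in 6m replicate 4 (5.67 CPM). The mean log2 CPM of the DNAJB genes was lowest in 6m replicate 1 (4.24) and that of the DNAJC genes in 6m replicate 4 (4.18).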

How the results depend on the processing

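Of 1418 values of the 79 tested members under the alternatives, 1282 kept direction and call, 34 lost the call, 50 gained one and 52 changed sign. Scaling by library totals alone moved the median of all genes to 0.21, giving 19 members higher and 11 lower, and medians of 0.03 (all members), 0.62 (HSP70 and HSP110), -0.36 (HSP90), -0.17 (small HSP), 0.27 (DNAJA), 0.26 (DNAJB), 0.07 (DNAJC) and -0.16 (CCT); Cct6a was then at 0.11, Cct8 at 0.02, Dnaja1 at 0.08 and Hspb8 at 0.03. By padj alone 21 were higher and 36 lower. With the GC trend removed the medians were -0.29 (all members), -0.87 (HSP90), -0.11 (DNAJA), 0.10 (DNAJB), -0.32 (DNAJC) and -0.63 (CCT), with Dnajc3 at -0.18 and Hspa8 at -0.12. With the length trend removed they were -0.13 (all members), -0.69 (HSP90), -0.17 (small HSP) and -0.02 (DNAJB), with Dnajc3 at -0.10, Hspa8 at -0.22, Hspb8 at 0.27 and Hsph1 at -0.23. DESeq2 on quantile-normalized counts gave -0.12 (all members), -0.43 (HSP90), -0.68 (small HSP), 0.11 (DNAJB), -0.24 (DNAJC) and -0.25 (CCT), with Cct6a at 0.01, Dnajc3 at -0.22 and Hsp90ab1 at 0.10. The small HSP median was -0.88 at a minimum of 1 CPM, where fewer genes were tested, and the looser heat shock element raised the share of promoters from 2.38% to 17.9%. Leaving out 1 library in turn gave 11 to 15 higher and 14 to 20 lower, and medians of -0.24 to -0.16 (all members), -0.66 to -0.49 (HSP90), 0.02 to 0.12 (DNAJA) and -0.21 to -0.11 (DNAJC); Dnajc3 ranged from -0.02 (without 24m replicate 4) to 0.22. The cause of these shifts was not tested. With the replicate number as a block 12 members were higher and 18 lower the added call being Hspbp1 (-0.60); same-numbered libraries correlated at 0.271, 0.143, 0.078 and -0.348, so the numbers do not pair animals. Depth limits the 5 members that were not tested.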
